A study of Mus musculus with 2 samples.

Results

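The miRNA genes described here lie inside Sfmbt2 on mouse chromosome 2. They are all genes of the deposited count tables that the GENCODE M21 annotation (mouse build GRCm38, mm10) places on the strand of Sfmbt2 with start and end within that gene, 119 of 2202 miRNA genes. The data are 2 small RNA libraries from the heart of male mice of the strain B6CASTF1/J, the F1 hybrid of C57BL/6J and CAST/EiJ, aged 18 to 20 months. The labels name no treatment or transgene, and they put both libraries in 1 group as biological replicates 1 and 2. Each library has a biosample of its own, yet both carry a single donor record, so their spread may be technical, and with 1 group no condition can be compared.

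Small RNAs called microRNAs (miRNAs) are processed from hairpin-shaped precursors. They bind messenger RNAs mainly through the seed, bases 2 to 8 of the mature miRNA, and repress them. Sfmbt2 encodes a Polycomb-group protein and is imprinted: in the placenta and other extraembryonic tissues it is read from the paternal copy. Its intron holds one of the largest miRNA clusters of the mouse, built from repeated copies of the families miR-297, miR-466, miR-467 and miR-669, and the cluster is known for its role in the growth of the placenta. In heart, miR-669a has been studied in cardiac progenitor cells, where it holds back skeletal muscle differentiation. The deposited counts do not separate the C57BL/6J and CAST/EiJ alleles, so imprinting cannot be read from them.

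Mature sequences from RefSeq (build GRCm38.p6) are shown for 3 namesakes of these families that lie elsewhere in the genome, the first by position in each family with a mature sequence in the table, because they display the short GU and CA repeats from which the families are built. Capitals mark the seed.
mmu-miR-466q: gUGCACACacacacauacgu
mmu-miR-467g: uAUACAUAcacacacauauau
mmu-miR-669n: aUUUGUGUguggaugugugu
Mir466q lies on chromosome 3 with its mature sequence at 28419988 to 28420007 (plus strand), Mir467g on chromosome 5 at 34732872 to 34732892 (minus strand) and Mir669n on chromosome 3 at 115979905 to 115979924 (plus strand). The longest stretch of each that a hairpin of the Sfmbt2 cluster holds, sought on both strands of the hairpin, was 15, 16 and 18 bases. Seeds were counted in the hairpins on the sense strand. AUACAUA, the miR-467g seed, occurred in 78 of the 119 cluster hairpins (65.5%) and in 3.12% of all other miRNA hairpins, which differ in length. UGCACAC, the miR-466q seed, occurred in 30 cluster hairpins (25.2%, against 1.34% elsewhere). UUUGUGU, the miR-669n seed, occurred in 10 (8.40%, against 2.26%). The table holds a mature sequence for 8 namesakes, none of which was found whole in a cluster hairpin. The longest shared stretch of the 8, again on either strand, ran from 14 bases for miR-467f to 22 of 23 for miR-466k and miR-466j. Seeds were not frequent for all of them, since UAAGUGU, that of miR-467h, occurred in 1 cluster hairpin (0.840%, against 0.624% elsewhere). These matches describe the letters of the hairpins and are no evidence that such miRNAs are made.

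The libraries held 3037063 (replicate 1) and 5284446 (replicate 2) reads counted on the sense strand of miRNA genes, out of 9468820 and 19574873 reads. Reads with more than 1 mapping place, which no gene's count includes, made up 40.7% and 32.5% of all reads. Levels are given in CPM, counts per 1000000 sense miRNA reads. The labelled tissue was matched by the heart muscle miRNAs Mir208a, at 5184 and 9154 CPM, and Mir499, at 5559 and 5487 CPM. A further heart muscle miRNA, Mir208b, was far lower, at 50.0 and 116 CPM. The liver miRNA Mir122 had 30.0 and 12.7 CPM. Endothelial Mir126a (85244 and 109823 CPM) and smooth muscle Mir143 (43725 and 38639 CPM) were abundant too. Smooth muscle Mir145a had 1968 and 2001 CPM. In whole tissue, fewer cells of a type and less RNA per cell cannot be told apart.

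All 119 genes lie in 1 intron of Sfmbt2 (chromosome 2, 10370510 to 10595253, plus strand), that between exons 10 and 11 of its annotated transcript with 23 exons. The genes cover 53.0 kb (10465287 to 10518279) of this 62.5 kb intron (10461473 to 10523944), do not overlap one another and overlap no annotated exon of another gene. Neighbouring genes start a median of 294 bases apart (196 to 2673). By name, 29 are Mir669, 23 Mir466, 14 Mir467 and 5 Mir297 genes, and 48 carry a Gm name, the form used for predicted genes. The array is repetitive: successive copies of Mir467a follow one another at a median of 2462 bases (9 intervals, 2413 to 4880). Among the 119 hairpins, 16 groups were identical over their whole length and took in 47 genes, up to 9 genes in a group. That group was Mir669a-4 to Mir669a-12, and another was 6 copies of Mir467a with Gm25022. The names therefore do not part the hairpins cleanly. Gm25943 is identical to Mir466b-4, Gm26092 to Mir669a-1 and Gm25285 to Mir466c-2, and Gm25285 has the synonym Mir466c-3.

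Few of these genes had a counted read. Any read in either library was found at 10 of 119 genes (8.40%), against 735 of all 2202 miRNA genes (33.4%). A count of 10 or more in each library was reached by 6 (5.04%), against 321 of 2202 (14.6%). The 2202 genes include many whose hairpin shares no long stretch with another, and those that share one are set apart below. The other 109 genes had 0 reads in both libraries, which allows up to 3 reads each, equal to 0.988 CPM in the first library and 0.568 CPM in the second. No read lay on the opposite strand of any of the 119 genes in either library.

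The cluster as a whole held 2337 reads in replicate 1 and 4132 in replicate 2. These were 0.0769% (95% Wilson interval 0.0739 to 0.0801) and 0.0782% (0.0758 to 0.0806) of the sense miRNA reads, or 0.0776% ± 0.000879 (SD, n = 2). Intervals cover counting error only. The log2 ratio of the summed CPM, replicate 2 over replicate 1, was 0.02 (95% exact interval -0.05 to 0.10), an interval that includes 0.

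Mir467d was the highest gene of the cluster in both libraries. It had 1548 reads in replicate 1 and 2318 in replicate 2, 510 and 439 CPM (474 ± 50.2, SD, n = 2), which was 66.2% and 56.1% of the reads of the cluster. It ranked 82 and 91 among the 2202 miRNA genes. Mir467d (ENSMUSG00000077021.2, chromosome 2, 10507630 to 10507714, plus strand) lies toward the 3′ end of the array, as do the next 3 genes by level. Mir467e (ENSMUSG00000076948.2, 10505721 to 10505807) had 332 and 556 reads, 107 ± 2.90 CPM (SD, n = 2). The third Mir467 gene with reads, Mir467c (ENSMUSG00000077049.2, 10473931 to 10474027), had 110 and 176 reads, 34.8 ± 2.06 CPM (SD, n = 2), and lies at the other side of the array. The 3 Mir467 genes kept the same order in both libraries, and their ranges did not overlap.

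The Mir669 genes with reads were all below Mir467d and Mir467e. For Mir669c (ENSMUSG00000076118.1, 10509296 to 10509404) the libraries held 193 and 465 reads, 63.5 and 88.0 CPM. Mir669o (ENSMUSG00000077086.1, 10514300 to 10514395) had 128 and 490, or 42.1 and 92.7 CPM. Their order was therefore not the same in the 2 libraries: Mir669c was above Mir669o in replicate 1 and below it in replicate 2, and their ranges overlapped. At 34.8 CPM, Mir467c lay below both of them in each library. Mir669l (ENSMUSG00000076959.1, 10468971 to 10469068) had 20 and 75 reads, 6.59 and 14.2 CPM. Mir669e (ENSMUSG00000080653.1, 10467495 to 10467613) had 5 and 42 reads, 1.65 and 7.95 CPM. Both were higher in replicate 2, and their ranges overlapped.

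**Figure D1:**
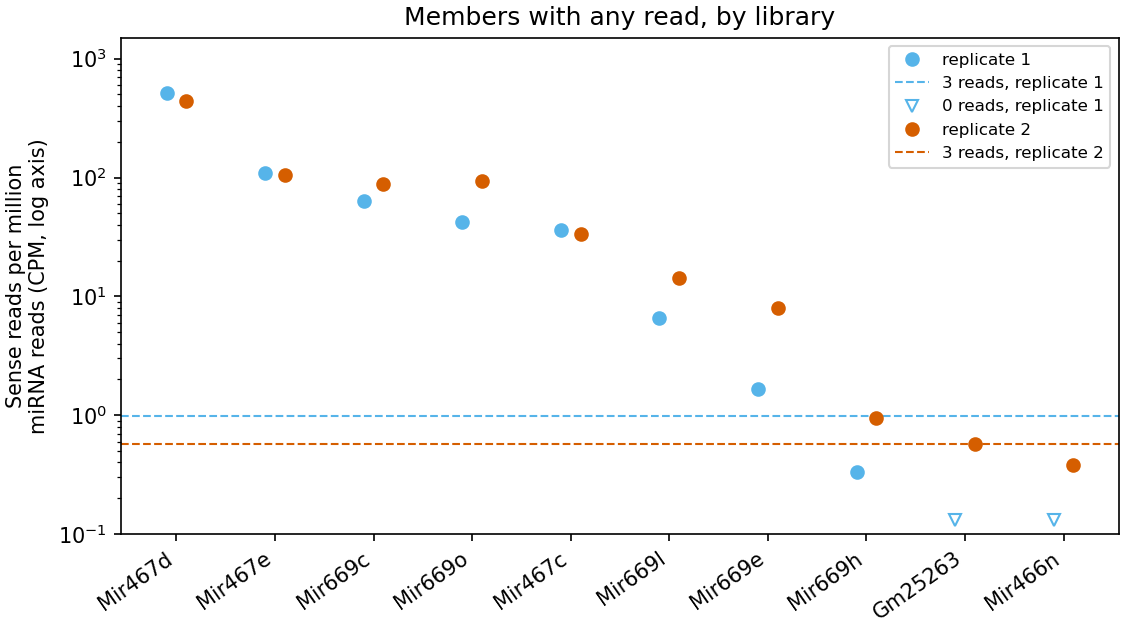
Level of each of the 10 cluster genes with any read, in CPM (log axis), 1 point per library; dashed lines mark what 3 reads amount to in each library and open triangles mark 0 reads. Mir467d stands above the others at 510 and 439 CPM, and Mir669h, Gm25263 and Mir466n lie near or under the lines.

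The other 3 genes with a read were at or near the limit of counting and are named only because they complete the count, after their values were seen. Mir669h had 1 and 5 reads, Gm25263 had 0 and 3, and Mir466n had 0 and 2. Mir466n was the only 1 of 23 Mir466 genes with a read and Gm25263 the only 1 of 48 Gm-named genes. All 5 Mir297 genes had 0 reads in both libraries. By family, 3 of 14 Mir467 genes and 5 of 29 Mir669 genes had a read.

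**Figure D2:**
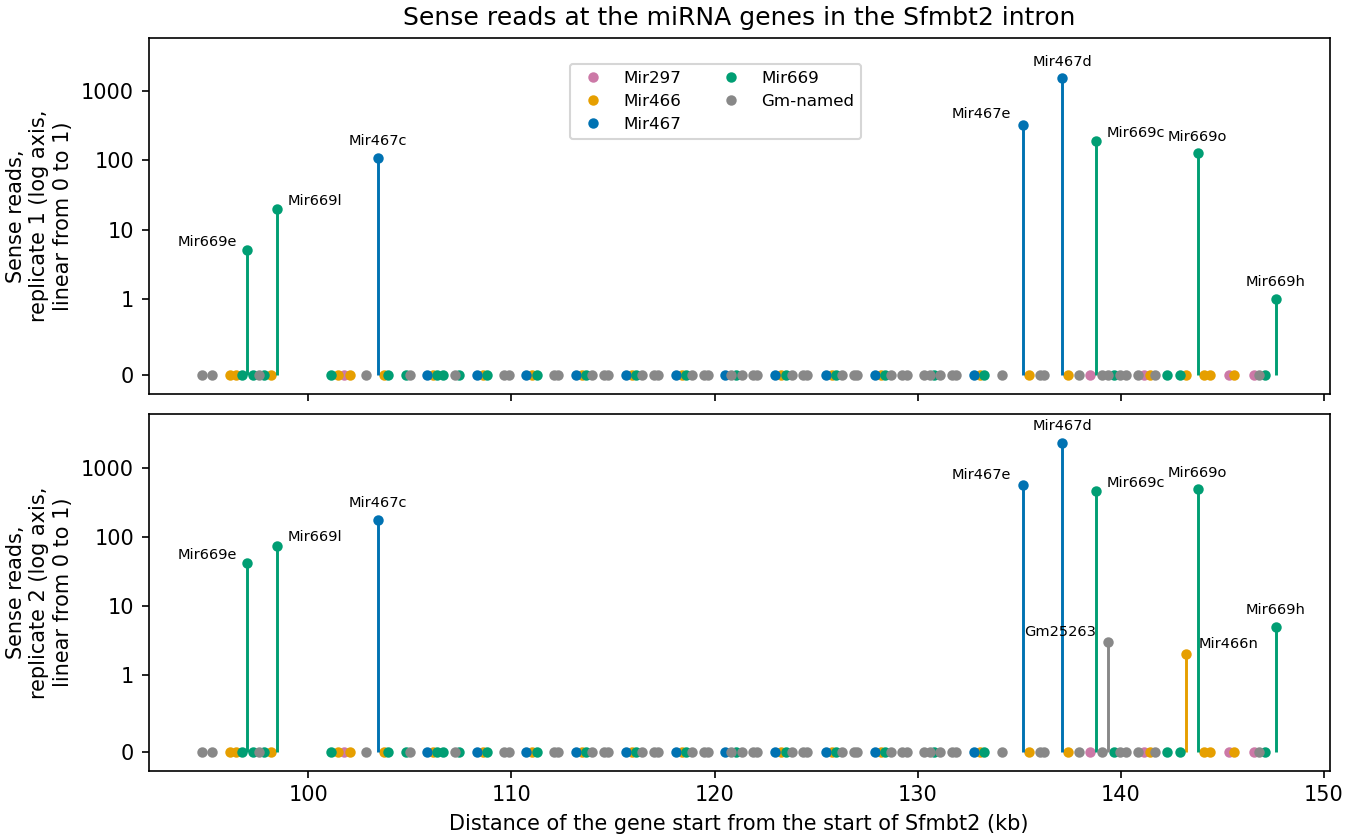
Sense reads at each of the 119 miRNA genes in the Sfmbt2 intron against the distance of the gene start from the start of Sfmbt2 (kb), for replicate 1 (top) and replicate 2 (bottom), on a log axis that is linear from 0 to 1; colours mark the family. Reads lie at both sides of the array, led by Mir467d (1548 and 2318 reads), and none at the 72 genes between Mir467c and Mir467e.

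Along the array, the genes with reads lay on both sides of a stretch without any; its bounds were set after the values were seen, so the split is a description. Up to and including Mir467c, 3 of 17 genes had reads, 135 and 293 in all. From Mir467e to the end of the array, 7 of 30 genes had reads, 2202 and 3839 in all. Between these genes lie 72 others over 30.6 kb (10474219 to 10504773), and all 72 had 0 reads in both libraries. This stretch holds all 10 copies of Mir467a, all 8 of Mir466b and 11 of the 12 copies of Mir669a. The remaining copy, Mir669a-2, lies beyond it and had 0 reads as well.

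How far copies limit this reading was measured from the hairpins. A hairpin that shares an exact 22-base stretch with a hairpin of another locus can yield reads that map to several places, and those are in no gene's count. In the cluster 117 of 119 hairpins (98.3%) shared such a stretch, against 915 of the 2083 other miRNA genes (43.9%). Of these 915 genes, 95 (10.4%) had a read in either library and 55 (6.01%) had 10 or more in each. These shares are near the 8.40% and 5.04% of the cluster. All cluster genes with reads were among the 117. The exceptions, Gm22239 and Mir466g, had 0 reads.

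Sharing a stretch does not by itself remove all reads, so the share of each hairpin's 22-base windows that occur in no other locus was counted. No such window was left in 54 of the 119 hairpins (45.4%), and all 54 had 0 reads. These took in all 10 copies of Mir467a, 11 of 12 of Mir669a and 6 of 8 of Mir466b, so a count of 0 says nothing of how much of these miRNAs the heart holds. In the stretch without reads, 52 of 72 hairpins had no window of their own, against 0 of 17 before it and 2 of 30 after it. The other 20 hairpins of the stretch had at least 1 window of their own. Their 0 reads follow from how the stretch was bounded, so they allow no comparison with its sides. Of genes with such a window, 3 of 17 before the stretch and 7 of 28 after it had a read. The limit is not absolute elsewhere, since 3 of the 243 other miRNA genes without such a window had a read.

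The remaining 65 cluster hairpins had at least 1 window of their own, and 10 of them (15.4%) had a read. Among the other miRNA genes with at least 1 such window, 722 of 1840 (39.2%) had a read. Most of those 1840 genes share no long stretch with another locus, while nearly all cluster hairpins do. Of the 672 that share one, 92 (13.7%) had a read, which is near the 15.4% of the cluster. In the Mir467 family 4 of 14 hairpins had a window of their own, and 3 of these 4 had reads. The exception was Mir467b with 11 of 52 windows. For Mir669 genes, 5 of the 16 with a window of their own had reads, and for Gm-named genes 1 of 26. As examples chosen after their values were seen, Gm23542 had 73 of 75 windows of its own, Mir466h 58 of 60, Mir669b 68 of 76 and Mir466l 89 of 100, and each had 0 reads in both libraries. Windows were counted over the whole hairpin among annotated hairpins only. Whether the mature miRNA itself has a copy elsewhere in the genome was not tested.

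**Figure D3:**
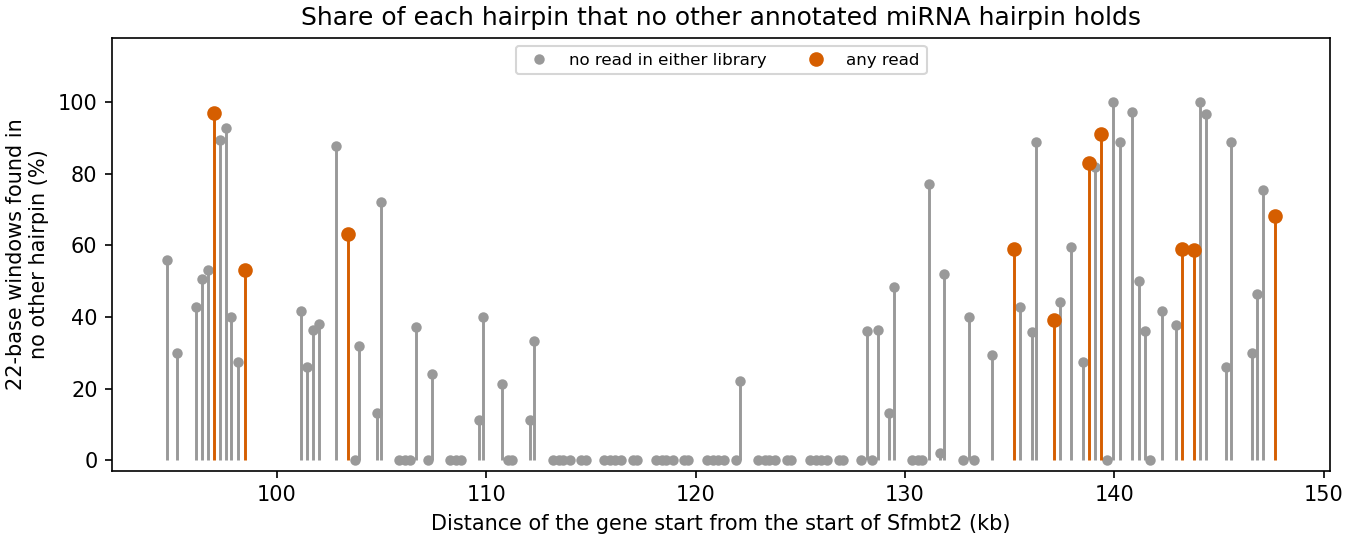
Share of the 22-base windows of each hairpin that no other annotated miRNA hairpin holds (%), against the distance of the gene start from the start of Sfmbt2 (kb), for genes with any read (orange) and without (grey). The 10 genes with reads have shares from 39.1% to 96.9%, while 54 genes, most of them in the middle of the array, are at 0.

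Genes with reads had close relatives that had none. Mir467d shares 60 of its 85 bases in 1 unbroken stretch with 10 hairpins, 9 copies of Mir467a and Gm25022, all at 0 reads. Of its 64 windows 25 (39.1%) are its own, the lowest share among the genes with reads. Mir669l shares 57 of its 98 bases with Mir669d, which had 0 reads. Mir467c and Mir467e share 48 bases with each other, and both had reads. For Mir669o the longest shared stretch was 38 of 96 bases, with 12 hairpins, 11 copies of Mir669a and Gm26092, and it shares 22 bases or more with 38 hairpins of the cluster. Mir669e is the gene least limited in this way among those with reads: 95 of its 98 windows (96.9%) are its own, and its longest shared stretch is 24 bases, with Gm27361 outside the cluster. The reads counted for Mir467d, Mir467e and Mir669o are therefore only those that could be placed at 1 locus, and the order of the genes by CPM need not be the order of the miRNAs in the tissue.

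The stability of the hairpins was compared by name and by reads. The minimum free energy that RNAfold gives a hairpin, divided by its length, had a median of -0.413 kcal/mol per base over the 71 Mir-named cluster genes and -0.293 over the 48 Gm-named ones, where a lower value is a more stable fold. Elsewhere in the genome the medians were -0.407 over 1103 Mir-named and -0.319 over 973 Gm-named genes. In the cluster the median was -0.383 over the 10 genes with reads and -0.381 over the 109 without. These medians are descriptions with no test, and identical hairpins enter them once per gene. In the cluster 47 of the 119 genes belong to groups of identical hairpins. Gm-named genes elsewhere seldom had a read either (39 of 973, 4.01%), while 682 of 1103 Mir-named genes elsewhere did (61.8%). Of the 71 Mir-named cluster genes 9 had a read (12.7%). The 2 sets of Mir-named genes differ in copies: 70 of the 71 hairpins (98.6%) share a 22-base stretch with another locus, against 159 of the 1103 (14.4%). The 12.7% is near the 10.4% of all genes outside the cluster that share such a stretch.

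Namesakes of the 4 families outside Sfmbt2 had almost no reads. Of 10 such genes, Mir466q had 0 reads in replicate 1 and 1 in replicate 2, and the other 9, among them Mir466k and Mir669n, had 0 in both. All 10 hairpins have windows of their own, yet 9 of them share a 22-base stretch with another locus. The 1 of 10 namesakes with a read (10%) is near the 10.4% (95 of 915) of all genes outside the cluster that share such a stretch. Another large imprinted miRNA array, on the strand of Dlk1 between Dlk1 and Dio3 on chromosome 12, is set beside the cluster for scale. It had reads at 50 of 59 genes and took 0.226% and 0.160% of the sense miRNA reads in replicates 1 and 2, and 5 of its 59 hairpins share a 22-base stretch with another locus. The difference between the arrays was not tested.

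Differences between the libraries were tested where the 2 counts of a gene summed to 10 or more, by an exact two-sided binomial test given the library totals. It asks whether 2 libraries differ by more than counting error and does not bear on any condition. Of the 7 cluster genes tested, 5 differed: 4 were higher in replicate 2 and 1 in replicate 1. Across all 424 genes tested 52.8% differed, with 30.9% higher in the second library and 21.9% in the first, so most genes differed in the background as well. The median log2 ratio of the 7 was 0.47, beside 0.07 over all genes tested, and the other 112 cluster genes had too few reads.

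The 4 genes higher in replicate 2 were all Mir669 genes, and the 3 tested Mir467 genes had ratios below 0. Mir669o had a log2 ratio of 1.14 (95% exact interval 0.85 to 1.43, adjusted p = 1.2e-16, exact binomial test with Benjamini-Hochberg adjustment). For Mir669c it was 0.47 (0.22 to 0.72, adjusted p = 0.000302, exact binomial test). Mir669l had 1.11 (0.38 to 1.90) and Mir669e 2.27 (0.94 to 3.97), with adjusted p = 0.00319 and 0.000272 in the exact binomial test. Mir467d was lower in replicate 2, at -0.22 (-0.31 to -0.12, adjusted p = 1.67e-05, exact binomial test). Mir467e at -0.06 (-0.25 to 0.15) and Mir467c at -0.12 (-0.47 to 0.24) did not pass that test. None of the 7 was called by edgeR's exact test with the spread usual for this pair of libraries (adjusted p = 0.642 for Mir669e and 1 for the others), which called 2.83% of all genes tested. Without adjustment, 1 of the 7, Mir669e, had a p under 0.05 in that exact test. The spread it uses was estimated from these same 2 libraries, so it is no independent check.

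**Figure D4:**
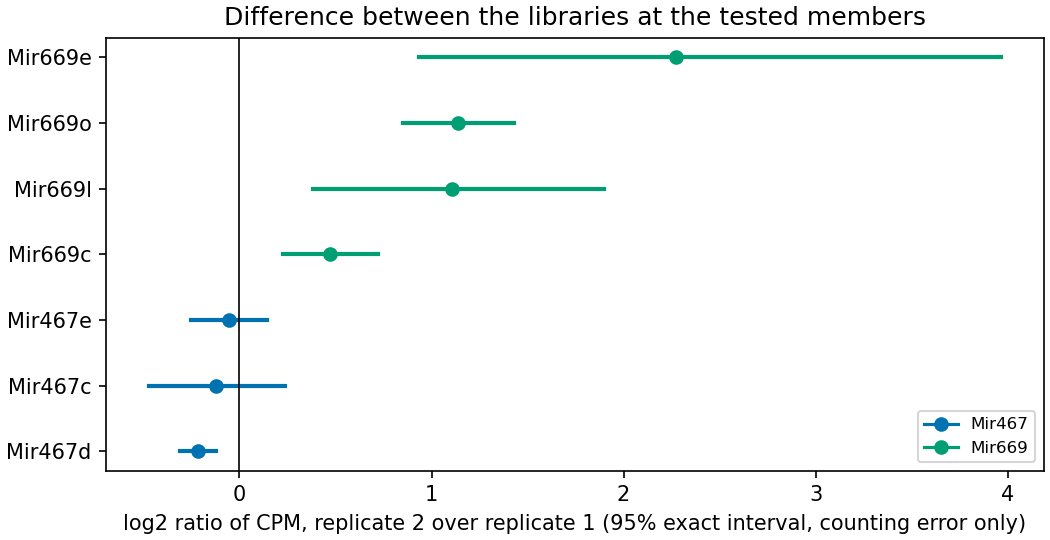
Log2 ratio of CPM, replicate 2 over replicate 1, for the 7 cluster genes tested; bars are 95% exact intervals that cover counting error only. The 4 Mir669 genes (green) lie above 0, from 0.47 to 2.27, and the 3 Mir467 genes (blue) lie between -0.22 and -0.06.

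Summed by family, the Mir467 genes had 1990 and 3050 reads, 85.2% and 73.8% of the reads of the cluster (79.5% ± 8.02, SD, n = 2). The Mir669 genes had 347 and 1077 reads, 14.8% and 26.1% (20.5% ± 7.93, SD, n = 2). The log2 ratio of replicate 2 to replicate 1 was -0.18 for Mir467 (95% exact interval -0.26 to -0.10) and 0.83 for Mir669 (0.66 to 1.01). Each sum rests on the few genes named above, and the difference between the families was not tested over replicates.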

How the data were processed

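Small RNA was sequenced from total RNA with a size range under 30, per the labels. The authors deposited a table of raw counts for each library, by miRNA gene, with 3 count columns after 4 summary lines; per the text deposited beside the tables, the build was mm10 and the annotation GENCODE M21. The aligner, the counter and any adapter trimming remain not given in the sources used here. That text names no strand: the second count column was taken as sense because it held the most reads over miRNA genes, the first as either strand and the third as the opposite strand. The summary lines stayed out of all totals.

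All 2202 gene IDs matched GENCODE M21, which gave names, positions and hairpins; genes overlapping on either strand counted as 1 locus, and copies were sought on both strands. Sense counts were scaled to CPM. Genes whose 2 counts summed to 10 or more were compared with an exact binomial test (SciPy 1.17.1), adjusted by Benjamini-Hochberg over 424 genes, threshold 0.05. The code was checked on simulated counts with counting error only, which says nothing of how the test behaves under the spread between these libraries. Alternatives used TMM scaling and the exact test of edgeR 4.0.16 with its common dispersion (biological coefficient of variation 40.5% over 321 genes with 10 or more reads in each), and size factors of DESeq2 1.42.0. Folding used RNAfold 2.7.2. Named genes are the members with at least 10 reads in either library (up to 12), their closest pairs (up to 3) and the namesakes with most reads (up to 3, of which all but Mir466q tied at 0). Mir467d has 10 equally close partners and these were described as 1 pair. Mir467g and Mir669n were shown for their sequences, and other genes were named after their values were seen. Whether reads were lost where CAST/EiJ differs from the reference build was not tested. The members and lists were chosen with earlier results of these data known. p-values of the binomial test set the difference between these 2 libraries against counting error only, and that difference may be technical.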

Additional observations from a re-analysis of the deposited data

How the results depend on the processing

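The number of cluster genes with any read (10) and with at least 10 reads in both libraries (6) stayed within a factor of 1.5 under each alternative run, at 8 to 10 without either replicate for the first and 6 to 7 for the second. In the column for either strand the cluster took 0.105% of the miRNA reads, and 0.0229% when all reads of a library were the total. In that column the cluster had the same reads and all miRNA genes together fewer, 2252906 and 3919613; why was not tested. Without either replicate the share was 0.0769% to 0.0782%. Shared stretches of 18 and 25 bases took in 117 and 113 hairpins. Of the 5 genes that differed between the libraries, 0 did in edgeR's exact test at its common dispersion, which adds the spread between the libraries to counting error. Under TMM, DESeq2 size factors, no filter and the column for either strand the count was 5, and no ratio changed sign. The search of the whole genome for copies was not run. At this depth a gene with 0 reads may have up to 0.988 CPM in replicate 1 and 0.568 CPM in replicate 2 of reads that map to 1 place.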
